A study of Mus musculus with 15 samples.

Results

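The expression of 8 genes of interferon-gamma signalling was followed in the ileum of mice in which the transcription factor gene Rfx6 was targeted in the intestinal epithelium: Ifng, Ifngr1, Irf1, Socs1, Cd274, Cxcl9, Cxcl10 and Ido1. They are 8 of the 37620 gene identifiers in the deposited count tables, found by symbol in all 15 libraries. The symbols were selected on membership of the pathway with the measured differences between genotypes in these libraries in view, and no numeric threshold was set. The values below therefore describe these genes and are not independent evidence about them.

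Interferon-gamma, encoded by Ifng, is released mainly by T cells, natural killer cells and related innate lymphocytes. It binds a receptor made of Ifngr1 and Ifngr2, whose attached kinases are Jak1 and Jak2. The signal acts on promoters through gamma-activated sites and induces, among others, the transcription factor Irf1, which in turn binds interferon-stimulated response elements. In the gut this pathway is known for antigen presentation and antimicrobial defence, and also for brakes on immunity: Socs1 blocks the Jak kinases, Cd274 (PD-L1) engages the T cell checkpoint receptor PD-1, and Ido1 breaks down tryptophan. Cxcl9 and Cxcl10 are chemokines that attract cells carrying the receptor Cxcr3.

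Total RNA was sequenced from the ileum, the distal small intestine, taken 8 days or 3 months after adult mice received tamoxifen by gavage. The libraries labelled mutant came from mice with the genotype Rfx6f/f Vilin-CreERT2, which have loxP sites on both Rfx6 alleles and a tamoxifen-inducible Cre recombinase under the Villin promoter, active throughout the intestinal epithelium. There were 4 of these at each time. The 3 controls at 8 days were Rfx6f/f, and the 4 controls at 3 months were 2 Rfx6f/f and 2 Rfx6f/+ libraries. No control carried the recombinase, so its presence and the targeting of Rfx6 cannot be told apart, and neither can time after tamoxifen and cohort. The RNA came from the ileum and not from sorted cells, and in such bulk samples fewer cells of a type and less RNA per cell cannot be told apart. Replicates are numbered in deposit order and the labels do not say in words that each is a separate animal, so p-values measure the spread between libraries.

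Levels are given as counts per 1000000 (CPM), scaled with edgeR's TMM factors over all 15 libraries. Library totals in units of 1000000 counts were 30.5 to 54.5 at 8 days and 26.1 to 36.3 at 3 months. Rfx6 checks the labels, and it was not reduced: its counts were 50, 50 and 84 in controls and 80, 105, 63 and 44 in libraries labelled mutant at 8 days, and 51, 52, 38 and 43 against 106, 72, 89 and 65 at 3 months. These counts cover the entire gene and do not separate a deleted exon. Hormone genes of the enteroendocrine cells did differ: edgeR called Gcg, Cck and Sst lower among 9 markers at 8 days, and at 3 months called Gcg, Pyy, Nts, Cck and Sst lower and Chga, Chgb and Tph1 higher. Gcg, for instance, was at 37.2 to 44.5 CPM in controls and 1.25 to 3.58 CPM in libraries labelled mutant at 8 days. Epithelial markers such as Vil1 and Epcam were present in every library, with a summed level of the 10 markers of 9669 to 15951 CPM.

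Stretches of 3 promoters are shown because they hold letters of the elements through which interferon signals and factors of the Irf family are known to act. They come from RefSeq on GRCm38.p6 and are written on the gene's strand. Capitals mark matches to the gamma-activated site TTCNNNGAA (Irf1) or to the interferon-stimulated response element core, which is GAAA, any 2 bases and GAAA (Socs1 and Cxcl10).
Irf1, chr11:53769894-53769962, + strand: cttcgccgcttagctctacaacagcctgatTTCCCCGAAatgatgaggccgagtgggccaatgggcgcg
Socs1, chr16:10785574-10785649, - strand: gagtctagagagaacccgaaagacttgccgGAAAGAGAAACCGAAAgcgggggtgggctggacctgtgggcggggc
Cxcl10, chr5:92349063-92349132, - strand: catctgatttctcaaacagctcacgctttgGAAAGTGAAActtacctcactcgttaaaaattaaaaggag
The Irf1 match starts 90 bases before the gene's start. Socs1 holds a pair of overlapping matches, starting 83 and 77 bases before its start, and the Cxcl10 match lies 213 bases before its start. The 250 bases before the start in each of 32851 promoter windows were searched on both strands, and the bases after the start were not. TTCNNNGAA was found there in 7.02% of windows, or 8.13% of 27025 genes, and in 2 of the 7 members with a window, Ifng and Irf1. The response element core was found in 2.98% of windows, or 3.46% of genes, and in 2 of those 7 members, Socs1 and Cxcl10. Ido1 had no window. A match describes letters only, and no binding was measured here.

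At 3 months, 7 of the 8 genes were lower in the libraries labelled mutant: Ifng itself, the transcription factor Irf1, the brake Socs1, the checkpoint ligand Cd274, both chemokines and Ido1. The falls ran from 2.01-fold for Irf1 to 9.42-fold for Ifng, a value that rests on 0 to 7 counts per library labelled mutant. The receptor gene Ifngr1 stood at the same mean, 229 CPM, in both groups. In the table as a whole 9.28% of the 17085 genes tested were called at an adjusted p under 0.05, and 4.32% were called lower (edgeR quasi-likelihood test, Benjamini-Hochberg adjustment over all genes). The median log2 fold change of the 8 was -1.72, against 0.01 over all genes tested. With only the 2 Rfx6f/f controls, 1 member (Cd274) was still called and 36 of 17552 genes in the table were, while the log2 fold changes of the 7 lay between -2.89 and -0.98. With 1 library left out at a time, 5 to 7 members were called.

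**Figure D1:**
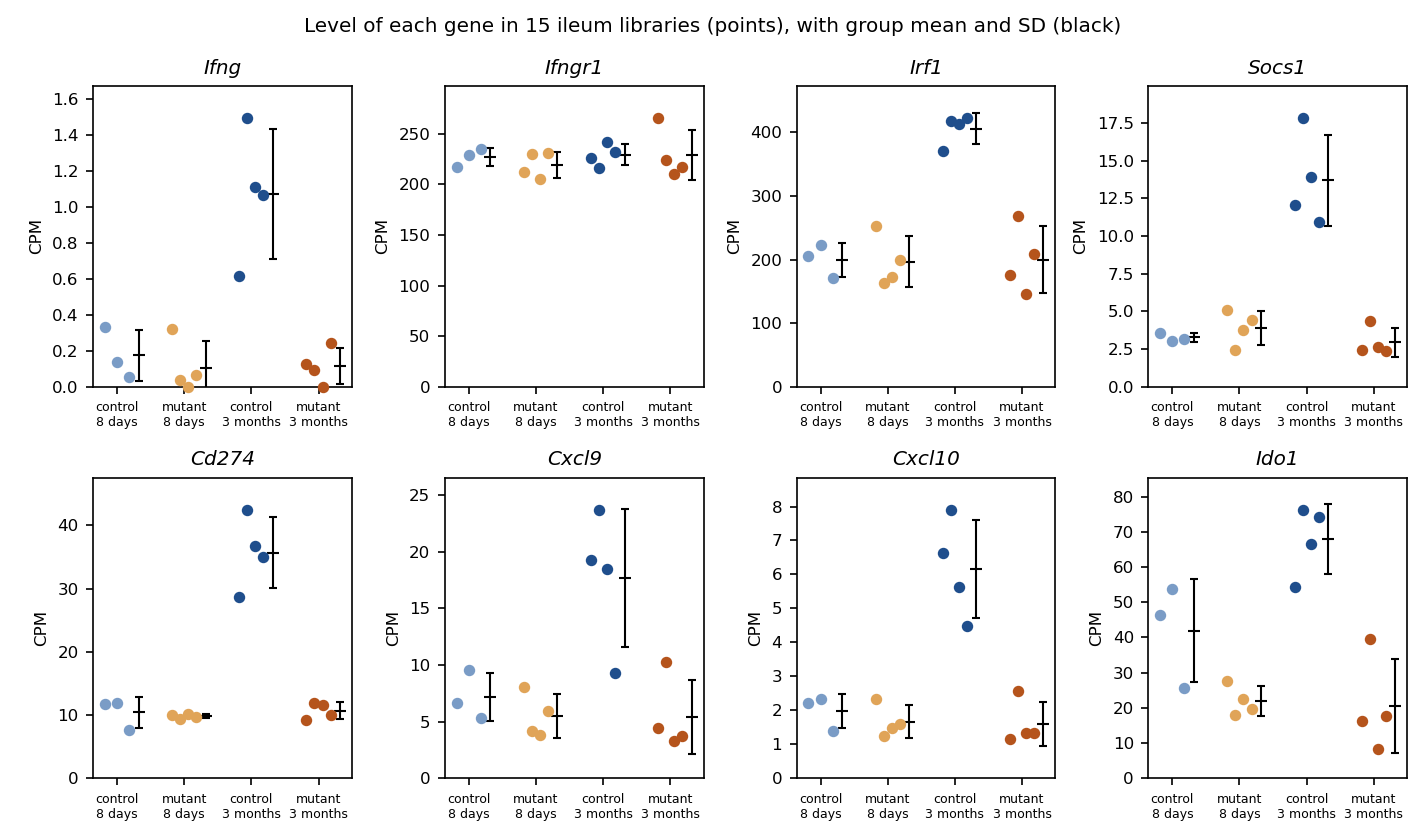
Level of each gene in every library, as CPM on a linear axis that starts at 0, with 1 panel per gene and 4 groups per panel. Points are libraries, black bars the mean and SD of the group, with SD bars that would pass below 0 ending at the axis. The 3-month controls stand above the other 3 groups for every gene but Ifngr1 and Cxcl9, where control 4, at 9.27 CPM, lies within them.

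The ligand was the least abundant of the 8, also per kilobase of exon. Ifng had 18, 49, 29 and 31 counts in controls 1 to 4 at 3 months, and 4, 3, 0 and 7 counts in libraries 1 to 4 labelled mutant. In CPM these were 0.615, 1.5, 1.11 and 1.07 against 0.126, 0.0960, 0 and 0.243. Every control was above every library labelled mutant, although the latter rest on so few counts that a filter of 10 counts in every library removed the gene. The mean was 1.07 ± 0.361 CPM (SD, n = 4) in controls and 0.116 ± 0.10 (SD, n = 4) in libraries labelled mutant, which gave a log2 value of -3.24 (SE 0.57, edgeR adjusted p = 0.0159). It was -3.85 without library 4 labelled mutant and -2.76 without library 3. At 8 days Ifng had 10, 5 and 3 counts in controls and 14, 2, 0 and 2 in libraries labelled mutant. These ranges overlap, and the gene fell below the count filter for a test at that time.

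The receptor chain showed no such difference. Ifngr1 stood at 226, 216, 241 and 232 CPM in the 3-month controls and at 265, 224, 210.5 and 217 CPM in the libraries labelled mutant. The groups overlap, with the highest and the lowest value both among the libraries labelled mutant. The log2 fold change was 0.02 (SE 0.08, edgeR adjusted p = 0.916) at 3 months and -0.05 (SE 0.07, adjusted p = 0.930) at 8 days. At 8 days the values were 217, 228 and 235 CPM in controls and 212, 229.6, 205 and 231 CPM in libraries labelled mutant, so the 15 libraries lay between 205 and 265 CPM.

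Irf1, the transcription factor whose promoter carries the gamma-activated site shown above, stood at 370.0, 418, 413 and 422 CPM in the 3-month controls. In the libraries labelled mutant it stood at 176, 269, 146 and 209 CPM. The groups do not overlap, and library 2 labelled mutant is the highest of its group. The mean went from 406 ± 24.2 CPM (SD, n = 4) to 200 ± 52.8 (SD, n = 4), giving a log2 difference of -1.0 (SE 0.17, edgeR adjusted p = 0.0134). At 8 days Irf1 was at 205, 223 and 171 CPM in controls and at 253, 163, 172 and 199.6 CPM in libraries labelled mutant, with overlapping groups and a log2 difference of -0.02 (SE 0.16, adjusted p = 0.989). Irf1 shares 135 exon bases with Gm17334 on the opposite strand, and whether the counting used strand is not given in the sources used here.

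Socs1, which shuts down Jak signalling in a feedback loop, had 12.1, 17.8, 13.9 and 11.0 CPM in the 3-month controls. It had 2.42, 4.35, 2.62 and 2.40 CPM in the libraries labelled mutant. The lowest control was 11.0 and the highest library labelled mutant 4.35 CPM, again library 2. The log2 fold change was -2.20 (SE 0.23, edgeR adjusted p = 0.00269), a 4.59-fold lower level. At 8 days the 3 controls lay at 3.60, 3.05 and 3.19 CPM, inside the range of the libraries labelled mutant at 5.08, 2.42, 3.74 and 4.43 CPM. The log2 fold change there was 0.25 (SE 0.24, adjusted p = 0.870).

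Cd274 encodes PD-L1, the ligand through which tissue cells restrain PD-1-bearing T cells. Its levels were 28.7, 42.5, 36.6 and 34.9 CPM in the 3-month controls and 9.19, 12.0, 11.6 and 10.0 CPM in the libraries labelled mutant. The groups are far apart and the libraries labelled mutant are close together, with a mean of 10.7 ± 1.32 CPM (SD, n = 4) against 35.7 ± 5.65 (SD, n = 4) in controls. The log2 fold change was -1.72 (SE 0.13, edgeR adjusted p = 0.000555), or 3.30-fold lower, and Cd274 kept its call in 17 of 17 alternative fits. At 8 days it stood at 11.8, 12.0 and 7.64 CPM in controls and at 10.0, 9.45, 10.2 and 9.63 CPM in libraries labelled mutant. The latter all lie within the range of the controls, and the log2 fold change was -0.09 (SE 0.16, adjusted p = 0.950).

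Of the Cxcr3 ligands, Cxcl10, whose promoter match is shown above, was at 6.62, 7.91, 5.64 and 4.48 CPM in the 3-month controls and at 1.16, 2.56, 1.32 and 1.32 CPM in the libraries labelled mutant. The groups do not overlap, and the log2 fold change was -1.94 (SE 0.28, edgeR adjusted p = 0.00878). Cxcl10 shares 133 exon bases with Art3 on the opposite strand. Cxcl9 was at 19.3, 23.7, 18.4 and 9.27 CPM in controls and at 4.44, 10.3, 3.27 and 3.75 CPM in libraries labelled mutant. Here the lowest control, 4, lies below the highest library labelled mutant, 2. The log2 fold change of Cxcl9 was -1.69 (SE 0.40, edgeR adjusted p = 0.0367), and 6 of the 8 fits that left out 1 library no longer called it: those without control 1, 2 or 3 or without library 1, 3 or 4 labelled mutant, with adjusted p from 0.0688 to 0.0952.

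At 8 days the chemokines overlapped between groups. Cxcl9 was at 6.67, 9.53 and 5.35 CPM in controls and at 8.08, 4.20, 3.79 and 5.96 CPM in libraries labelled mutant, giving a log2 difference of -0.39 (SE 0.29, edgeR adjusted p = 0.810). Cxcl10 was at 2.21, 2.34 and 1.40 CPM against 2.35, 1.24, 1.49 and 1.60 CPM, giving a log2 difference of -0.24 (SE 0.27, adjusted p = 0.898). For both, library 1 labelled mutant was the highest of its group.

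Ido1, the enzyme that opens the kynurenine route of tryptophan breakdown, stood at 54.4, 76.3, 66.5 and 74.4 CPM in the 3-month controls and at 16.3, 39.6, 8.46 and 17.8 CPM in the libraries labelled mutant. The groups do not overlap, but the libraries labelled mutant spread from 8.46 to 39.6 CPM. The log2 fold change was -1.71 (SE 0.39, edgeR adjusted p = 0.0328). It was no longer called in 6 of the 8 fits that left out 1 library, namely each control in turn and library 1 or 4 labelled mutant, where its adjusted p lay between 0.0515 and 0.0834. Ido1 was also the member with the largest change at 8 days: 46.3, 53.8 and 25.6 CPM in controls against 27.8, 18.1, 22.5 and 19.7 CPM. Control 3, at 25.6, lies below library 1 labelled mutant, at 27.8, and the log2 fold change of -0.93 (SE 0.24, edgeR adjusted p = 0.443) did not pass the test over all genes.

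At 8 days 0 of the 7 members tested were called by edgeR, where 0.0915% of the 17493 genes tested were. Before adjustment 1540 of all genes tested had an edgeR p under 0.05, and of the members tested 1 did, Ido1. DESeq2 called that gene (adjusted p = 0.0118) and limma-voom called 0. For all 8 members the CPM of the groups overlapped at 8 days, when 3.98% of the genes tested were higher and 3.7% lower without overlap. At 3 months the groups did not overlap for 6 members, each lower in the libraries labelled mutant, where 10.6% of the genes tested were lower without overlap.

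**Figure D2:**
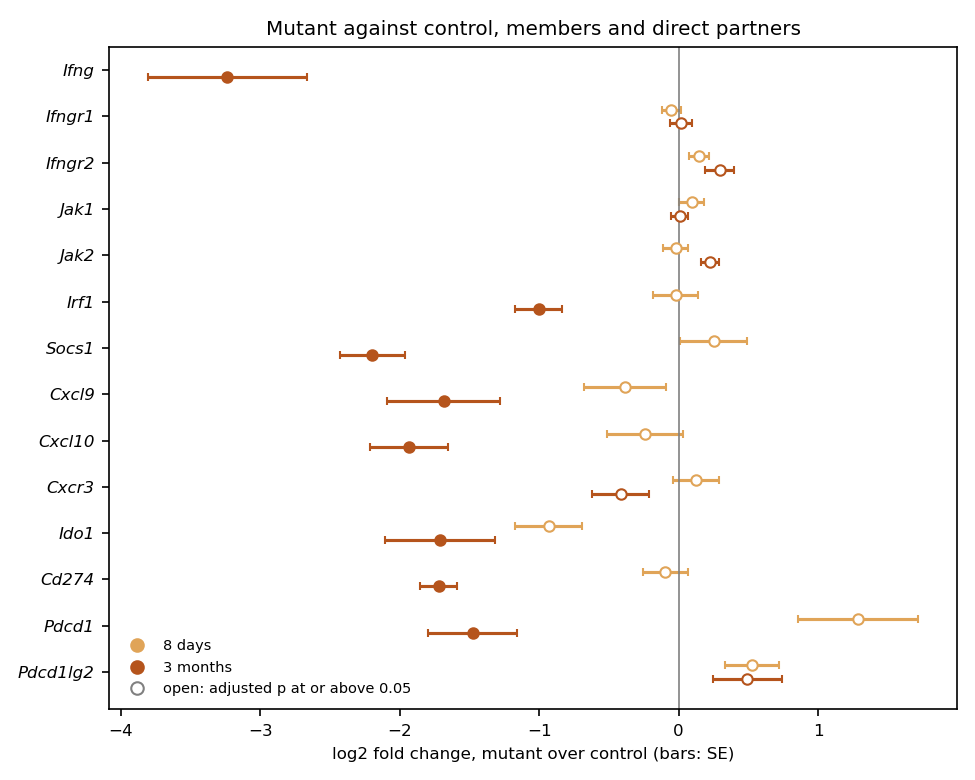
Log2 fold change (libraries labelled mutant over control) with its SE for each member and its direct partners at 8 days and at 3 months, from the edgeR fits, with filled points for genes called. Ifng was not tested at 8 days. The members' 8-day values lie between -0.93 and 0.25, and at 3 months those of all members but Ifngr1 lie between -3.24 and -1.0.

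Whether the effect differed between the times was tested directly, as the 3-month change minus the 8-day change in a fit of all 15 libraries. For 2 of the 8 genes it did, where 0.785% of 17959 genes were called: Socs1 by -2.47 (SE 0.36, edgeR adjusted p = 0.0104) and Cd274 by -1.65 (SE 0.21, adjusted p = 0.00530) on the log2 scale. Irf1, at -1.0 (SE 0.25, adjusted p = 0.0632), and Cxcl10, at -1.71 (SE 0.41, adjusted p = 0.0585), did not pass the threshold. Ifng, Cxcl9 and Ido1 had differences of -2.73 (SE 1.24), -1.32 (SE 0.55) and -0.80 (SE 0.51), with edgeR adjusted p of 0.283, 0.236 and 0.464. Leaving out 1 library moved Ifng to -1.13 (without library 1 labelled mutant of 8 days) or -3.50 (without control 1 of 8 days), and Ido1 to -0.51 or -1.34 (without library 3 or 2 labelled mutant of 3 months). DESeq2 called the difference for Irf1 (adjusted p = 0.00571) and Cxcl10 (0.00362) as well, besides Socs1 and Cd274, among 1013 of 17959 genes. With edgeR the change is not shown to differ between the times for these 5 genes, and with DESeq2 it is not for Ifng, Cxcl9 and Ido1. Without control 3 of 8 days Socs1 lost its call (edgeR adjusted p = 0.0590). Without library 2 labelled mutant at 3 months Irf1 and Cxcl10 gained theirs (edgeR adjusted p = 0.0225 and 0.0204). Over all genes, 10 of 18225 and 345 of 17903 were called in these 2 fits. With Rfx6f/f controls only, 0 members and 5 of 18199 genes were called by edgeR for this difference, with Socs1 at -2.20 (adjusted p = 0.0968) and Cd274 at -1.47 (adjusted p = 0.0666).

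The libraries that stood out were the 3-month controls. For Ifng, Irf1, Socs1, Cd274, Cxcl10 and Ido1 each of them was above all 11 other libraries, as was so for 5.37% of 17959 genes: Cd274, for instance, was at 7.64 to 12.0 CPM in the 11 and at 28.7 to 42.5 CPM in the 3-month controls. Comparing the cohorts in the joint fit, a comparison chosen after these values were seen, controls of 3 months were higher than controls of 8 days for 6 members, where 45.1% of all genes were called in either direction and 23% were called higher. The log2 differences were 2.73 for Ifng (edgeR adjusted p = 0.00998), 1.02 for Irf1 (0.000597), 2.06 for Socs1 (4.7e-05), 1.77 for Cd274 (4.7e-06), 1.30 for Cxcl9 (0.0184) and 1.65 for Cxcl10 (0.000663). Ido1 was at 0.70 (adjusted p = 0.145) and Ifngr1 at 0.01 (adjusted p = 0.902). Between the libraries labelled mutant of the 2 times edgeR called 0 of 8, where 37.8% of all genes were called. An unadjusted p under 0.05 was found for 0 of the 8 and for 8463 of 17959 genes. DESeq2 and limma-voom were not run on this comparison. These cohort differences share their libraries with the comparisons above, and age, cohort and any extraction difference cannot be told apart in them.

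**Figure D3:**
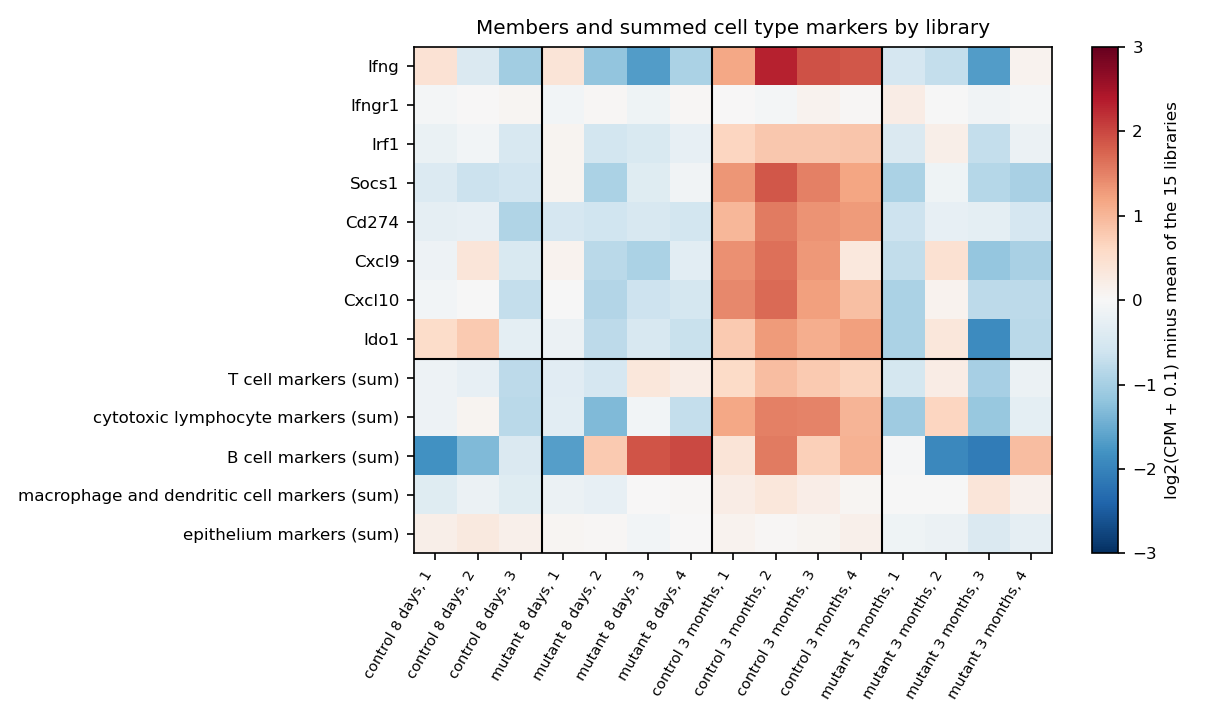
Level of each gene, and of the summed markers of 5 cell types, in each of the 15 libraries, as the colour-coded difference of log2(CPM + 0.1) from the row's mean over all libraries, with libraries in columns by group. The 4 controls of 3 months are above 0 for all members but Ifngr1, and library 2 labelled mutant at 3 months is the highest of its group for 6 members.

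The controls of 3 months mix genotypes. Both Rfx6f/+ controls were above both Rfx6f/f controls for 3 of the 8 members (Ifng, Socs1 and Cd274), as they were for 24.3% of the 17085 genes tested, and the genotypes overlapped for the other 5. Socs1 was at 12.1 and 11.0 CPM in the Rfx6f/f and at 17.8 and 13.9 CPM in the Rfx6f/+ controls, and Cd274 at 28.7 and 34.9 against 42.5 and 36.6 CPM. Irf1 was at 370.0 and 422 CPM in the former and at 418 and 413 CPM in the latter. With 2 libraries of each, no test was made.

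Compared per kilobase of exon, the levels of the 8 genes kept much of their order across groups. In the 3-month controls Irf1 was highest at 102 ± 6.08 CPM per kilobase (SD, n = 4), followed by Ifngr1 at 80.4 ± 3.68 and Ido1 at 37.2 ± 5.43. Cd274 followed at 9.85 ± 1.56, Cxcl9 at 5.86 ± 2.01, Socs1 at 4.71 ± 1.04, Cxcl10 at 2.74 ± 0.647 and Ifng at 0.828 ± 0.278. The spreads of Cxcl9 and Socs1 overlap, so their order is not resolved. In the libraries labelled mutant at 3 months Ifngr1 was above Irf1, at 80.5 ± 8.65 against 50.3 ± 13.3 CPM per kilobase, an order also seen in the 8-day controls at 79.7 and 50.2.

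Single libraries tended to be high or low for several members at the same time. Library 2 labelled mutant at 3 months was the highest of its group for 6 of the 7 members other than Ifngr1, the exception being Ifng. Control 2 of 3 months was also the highest of its group for 6 of these 7. At 8 days library 1 labelled mutant was highest for 6 of the 7, and control 3 lowest for 6 of the 7. After removing the group means, log2 CPM over the 15 libraries gave a Pearson r of 0.90 between Irf1 and Ido1, 0.90 between Cxcl9 and Cxcl10 and 0.82 between Socs1 and Cxcl10. These were the highest of the 21 pairs among the 7 members other than Ifngr1, and the lowest were 0.26 between Ifng and Cd274 and 0.35 between Ifng and Socs1. The values of Ifng rest on 0 to 14 counts in each library other than the 3-month controls. Ifngr1 had r between -0.48 and 0.01 with the other members. These are descriptions over libraries that share their depth scaling, and no p is given.

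The direct partners of the members differed in part. Pdcd1, which encodes PD-1, the receptor for PD-L1, fell at 3 months from 1.91 ± 0.760 to 0.682 ± 0.164 CPM (SD, n = 4 each), giving a log2 difference of -1.48 (SE 0.32, edgeR adjusted p = 0.0279). It was not called in 4 of the 8 fits that leave out 1 library (control 2 or 3, or library 1 or 3 labelled mutant), nor with Rfx6f/f controls only. The second receptor chain Ifngr2, at 0.29 (adjusted p = 0.101), and the kinases Jak1, at 0.01 (adjusted p = 0.955), and Jak2, at 0.23 (adjusted p = 0.0546), were not called by edgeR. Nor were Cxcr3, the receptor of Cxcl9 and Cxcl10, at -0.41 (adjusted p = 0.212), and Pdcd1lg2, the other PD-1 ligand, at 0.49 (adjusted p = 0.219). At 8 days the log2 fold changes of these 6 partners lay between -0.02 (Jak2) and 1.29 (Pdcd1), with edgeR adjusted p of 0.984 and 0.462 for those 2, and none of the 6 was called.

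Further genes of the pathway were counted in 6 lists of 114 genes, of which 112 were in the tables. At 3 months 104 were tested, 32 were called lower and 1 higher, or 31.7% against the 9.28% of all genes. Their median log2 fold change was -0.42. The count was 1 with the Rfx6f/f controls only (Gbp2), and DESeq2 called 54. It was 18, 14 and 11 without control 1, 2 or 3, and 16 and 18 without library 1 or 3 labelled mutant. The lists were also compiled with earlier results of these libraries known.

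Of the 6 pathway lists, interferon-gamma targets had the lowest median and the most calls. Of 28 tested, 21 were called lower, or 75.0% where 4.32% of all genes were, and all 28 had a negative log2 fold change, with a median of -0.97. The count was 12, 10 and 7 without control 1, 2 or 3, 12 without library 1 labelled mutant and 1 with Rfx6f/f controls only. Irgm1 and Gbp2, GTPases that act against intracellular pathogens, were at -1.43 (SE 0.16) and -1.57 (SE 0.18), with edgeR adjusted p of 0.00341 and 0.00380. Batf2, an interferon-induced transcription factor, was at -1.18 (SE 0.18, adjusted p = 0.00982), and Ciita, the master regulator of class II antigen presentation genes, at -0.95 (SE 0.16, adjusted p = 0.0126). Other called targets included the peptide transporters Tap1 and Tap2 and the immunoproteasome subunits Psmb8 and Psmb10. Of these 4, Tap1 was called in all 8 fits that leave out 1 library, and each of the other 3 was called in 1 of them, without library 2 labelled mutant. Several of the GTPase genes share exon bases with a neighbour, Igtp with Irgm2 and Gbp4 with Gbp8 and Gbp9, so their separate counts are uncertain.

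Upstream of Ifng, 3 of 14 inducers and producing-cell factors were called lower, or 21.4% where 4.32% of all genes were, with a median of -0.44. They were Il12b, a subunit of interleukin-12 and interleukin-23, at -1.96 (SE 0.45, edgeR adjusted p = 0.0331), Tbx21, the T-bet factor of Th1 cells, at -0.91 (SE 0.20, adjusted p = 0.0301), and Stat4, the relay of interleukin-12, at -0.88 (SE 0.15, adjusted p = 0.0136). Of these 3, Stat4 alone was called without control 1, 2 or 3 and without library 1, 3 or 4 labelled mutant, and none was called with Rfx6f/f controls only. In the receptor and JAK-STAT list 3 of 16, or 18.8%, were called lower, with a median of -0.10. Among them were the myeloid factor Irf8 at -0.88 (SE 0.14, adjusted p = 0.0117) and the phosphatase Ptpn1 at -0.37 (SE 0.08, adjusted p = 0.0252), whose call was lost in the joint fit and without control 1, 2 or 3 or library 1 or 3 labelled mutant. None of the list was called with Rfx6f/f controls only. The other 13, among them Ifngr2, Jak1 and Jak2, were not called by edgeR as fitted here. DESeq2 called 5 of these 13 (Ifngr2, Jak2, Stat2, Irf9 and Ptpn6), of which Ifngr2 and Jak2 had positive log2 fold changes in the edgeR fit. Other edgeR settings called some of the 13. Jak2 was called higher with a filter of 10 counts in every library. Irf9 and Stat2 were called in the joint fit, and these 2 with Stat3 and Socs3 were called lower without library 2 labelled mutant. Ptpn6 was called lower without library 4.

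Of 19 other checkpoint genes 2 were called lower, Pdcd1 and Ctla4, an inhibitory receptor of T cells at -1.06 (SE 0.21, edgeR adjusted p = 0.0234), and the median was -0.26. That is 10.5% of the list, where 4.32% of all genes were called lower. DESeq2 called 6 of the list, these 2 with Cd28, Icos, Icosl and Lag3. edgeR called 0 without control 2 or 3, without library 1 or 3 labelled mutant and with Rfx6f/f controls only, and Ctla4 was not called without control 1 either. Of 10 tryptophan and kynurenine genes edgeR called 1, higher, which is 10.0% where 4.96% of all genes were called higher. This was Cyp1a1, a target of the aryl hydrocarbon receptor that kynurenine can activate. It was higher in the libraries labelled mutant, by 2.22 (SE 0.47, adjusted p = 0.0257), in a list whose median was -0.19. Its call was lost without control 1, 2 or 3, without library 1 or 3 labelled mutant and with Rfx6f/f controls only. Il4i1 was also called by DESeq2 and by edgeR without library 4 labelled mutant. In that edgeR fit Cyp1a1 was the only pathway gene called higher, and Il4i1 was called lower. Of 17 type I and III interferon genes 3 were called lower, with a median of -0.54: the antiviral genes Rsad2 at -1.38 (SE 0.24, adjusted p = 0.0161), Ifit1 at -1.08 (SE 0.29, adjusted p = 0.0474) and Ifit2 at -0.68 (SE 0.15, adjusted p = 0.0302). These 3 are 17.6% of the list, where 4.32% of all genes were called lower, and DESeq2 called 8 of the list in either direction. Rsad2 was called in all 8 edgeR fits that leave out 1 library, while Ifit1 lost its call in 7 and Ifit2 in 6. None of the 3 was called with Rfx6f/f controls only. Some of these genes respond to interferon-gamma as well, so the lists are not exclusive.

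**Figure D4:**
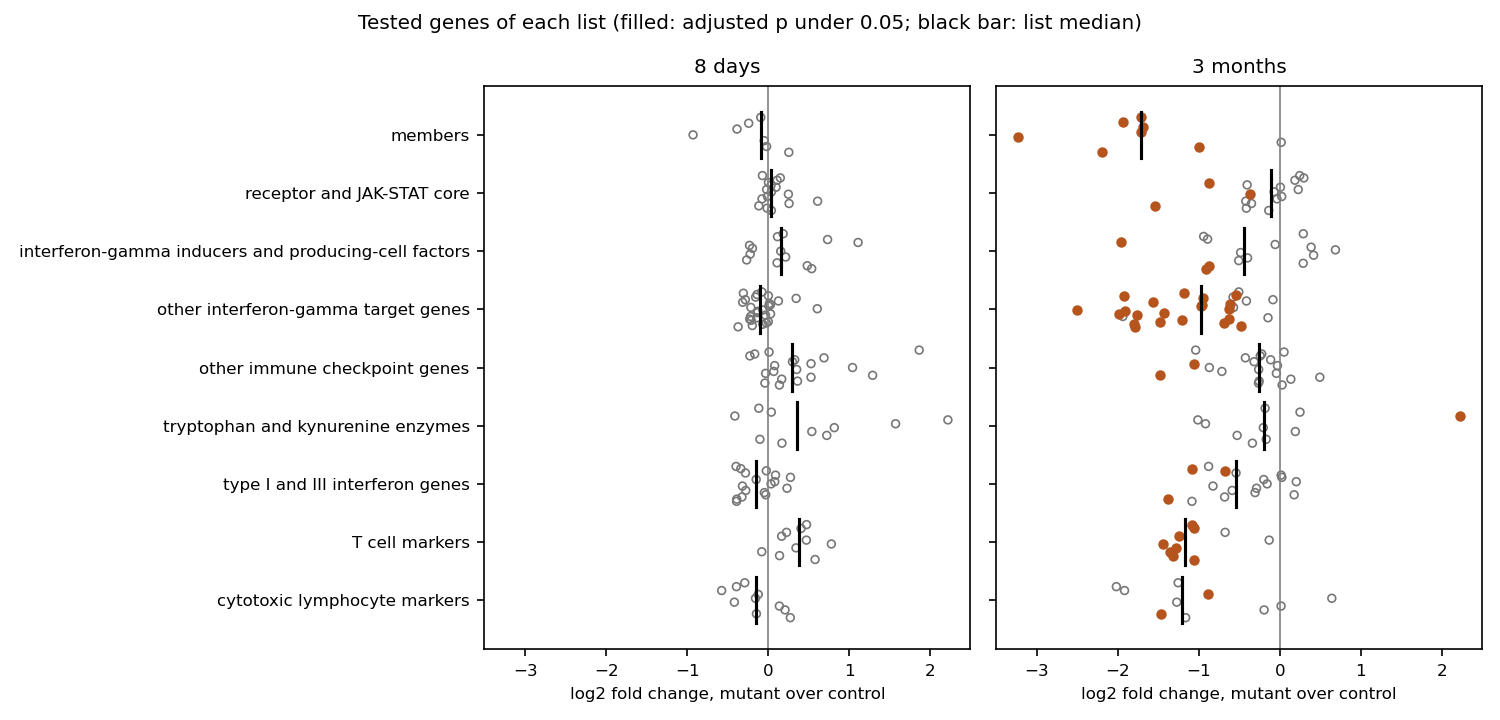
Log2 fold change (libraries labelled mutant over control) of each tested gene in the members, the 6 pathway lists and the T cell and cytotoxic marker lists, at 8 days and at 3 months on the same horizontal scale, with filled points for genes called at an adjusted p under 0.05 and a bar at each list's median. At 3 months all 28 interferon-gamma targets lie below 0, and at 8 days no point is filled.

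At 8 days 15 of the 103 pathway genes tested had an unadjusted p under 0.05 in edgeR, as did 1540 of all 17493 genes tested. Of the 103, edgeR called 0, DESeq2 called 1 (Haao) and limma-voom called 0. The median was 0.01, and the targets were at -0.10. Values included those of Haao, an enzyme of the kynurenine route, at 2.22 (SE 0.66, edgeR adjusted p = 0.460), the checkpoint receptor Btla at 1.86 (SE 0.60, adjusted p = 0.460) and the adhesion molecule Icam1 at 0.60 (SE 0.22, adjusted p = 0.476). Without library 1 labelled mutant 4 genes were called, Btla, Haao, Icosl and Il4i1, while calls over the entire table went from 16 to 200 of 17403 genes. Btla was at 4.33, 15.5, 34.7 and 29.6 CPM in libraries 1 to 4 labelled mutant, where the summed B cell markers were at 29.7, 162, 347 and 370.2 CPM. The part of the B cell markers in these 4 calls was not tested. For the difference between the times 4 of 105 pathway genes were called, all more negative at 3 months, or 3.81% where 0.406% of all genes were. Among them were Irgm1 at -1.32 (edgeR adjusted p = 0.0265), Pdcd1 at -2.78 (0.0487) and Ctla4 at -1.61 (0.0487). With each library left out the count ran from 0 to 22. It was 0 without any 1 of the 8-day controls, control 2 or 3 of 3 months, library 4 labelled mutant of 8 days or library 1 or 3 labelled mutant of 3 months, and 1 without control 1 of 3 months or library 3 labelled mutant of 8 days. It was 21 and 22 without library 1 labelled mutant of 8 days or library 2 of 3 months, and 8 without library 4 of 3 months. It was 31 with DESeq2, 1 with limma-voom, 10 under either other filter on low counts and 0 with Rfx6f/f controls only. Calls over all genes moved as well, from 141 in the main fit to 749, 345 and 395 in the 3 left-out fits just named. They were 1013 with DESeq2, 41 with limma-voom and 5 with Rfx6f/f controls only.

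Markers of T cells and plasma cells were mostly called lower along with the members at 3 months, although 5 or more of the T cell calls were lost in 7 of the 8 fits that leave out 1 library. Of 10 T cell markers 8 were called lower, or 80.0% where 4.32% of all genes were, with a median of -1.17, and their summed level was 105 to 136 CPM in controls and 35.9 to 83.8 CPM in the libraries labelled mutant. With Rfx6f/f controls only or without control 1, 2 or 3, 0 of these 10 were called, and 3, 1, 2 and 2 without control 4 or library 1, 3 or 4 labelled mutant. Robust empirical Bayes called 4. Of 10 cytotoxic lymphocyte markers 2 (Nkg7 and Itgae), or 20%, were called lower, with sums of 188 to 268 against 42.6 to 147 CPM. DESeq2 called 7 and limma-voom 6. edgeR called 0 with Rfx6f/f controls only, without control 1, 2 or 3 and without library 1 or 4 labelled mutant. It called 1 without control 4 or library 3 labelled mutant, and 7 without library 2. None of these 20 markers was at 0 in every library of a group. Library 2 labelled mutant, the highest of its group for most members, also had the group's highest T cell and cytotoxic sums, 83.8 and 147 CPM. Plasma cell markers were called lower for 5 of 8, or 62.5%, with sums of 2347 to 3232 against 1326 to 1850 CPM. The count was 2 to 6 with each library left out and 0 with Rfx6f/f controls only. B cell sums overlapped at 123 to 275 against 21.7 to 178 CPM, with 0 of 10 called by edgeR. An unadjusted p under 0.05 was found for 3 of these 10 and for 5018 of all 17085 genes tested. Macrophage and dendritic cell sums were 415 to 509 against 394 to 511 CPM, with Csf1r called higher and Itgam lower among 12. Epithelial sums were 13314 to 14601 CPM in controls and 9669 to 12012 CPM in libraries labelled mutant, with Fabp6 called lower among 10 markers. A sum of CPM follows its most abundant markers, and of these 10, 2 had a positive and 8 a negative log2 fold change. Of 6 endothelial markers 4, or 66.7% where 4.96% of all genes were, were called higher. The count was 1 to 3 with each library left out and 0 with Rfx6f/f controls only. Endothelial sums were 131 to 140 against 174 to 229.7 CPM.

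At 8 days the T cell sums were 41.1 to 64.4 CPM in controls and 49.9 to 89.6 CPM in libraries labelled mutant, and the cytotoxic sums 53.4 to 98.4 against 37.2 to 87.8 CPM. B cell sums were 26.6 to 69.6 CPM in controls and 29.7 to 370.2 CPM in libraries labelled mutant, with 0 of 10 markers called by edgeR, 10 at an unadjusted p under 0.05 and a median log2 fold change of 2.46. Lymphoid stroma and follicle markers had 0 of 7 called, 6 at an unadjusted p under 0.05 and a median of 1.44. Over all 17493 genes tested, 1540 had an unadjusted p under 0.05.

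Set against the T cell sum of the same library, a ratio added after the values were seen, Irf1 overlapped at 3 months at 308 to 375% in controls and 321 to 405% in libraries labelled mutant. Socs1 did not, at 9.74 to 13.1% against 3.79 to 7.29%, nor did Ifng at 0.583 to 1.10% against 0 to 0.384%, nor Ido1 at 51.7 to 66.1% against 23.5 to 47.2%. Cd274 overlapped at 27.3 to 31.3% against 14.3 to 32.3%, and Cxcl9 at 8.24 to 18.3% against 5.93 to 12.2%. Cxcl10 did not overlap, at 3.98 to 6.29% against 2.09 to 3.68%. Set against the cytotoxic sum instead, all members but Ifngr1 overlapped at 3 months: Ifng was at 0.295 to 0.567% against 0 to 0.321%, Socs1 at 5.34 to 6.66% against 2.96 to 6.15%, Cxcl10 at 2.16 to 3.18% against 1.74 to 3.10% and Ido1 at 25.5 to 39.5% against 19.8 to 36.5%. Irf1 was at 156 to 224% against 183 to 396%, Cd274 at 13.8 to 18.5% against 8.15 to 27.3% and Cxcl9 at 4.92 to 9.27% against 4.96 to 9.96%. Set against the summed epithelial markers, Irf1, at 2.61 to 3.14% against 1.47 to 2.34%, and Cd274, at 0.202 to 0.319% against 0.0765 to 0.120%, did not overlap, nor did Ifng, Socs1, Cxcl10 and Ido1. For these 6 members separation between the groups therefore depended on the marker sum used. Ifngr1, whose CPM overlapped between the groups, had higher ratios in libraries labelled mutant, without overlap. It was at 159 to 215% against 267 to 585% of the T cell sum. Over the cytotoxic sum it was at 80.8 to 123% against 152 to 595%, and over the epithelial sum at 1.59 to 1.74% against 1.95 to 2.21%. The ratios thus also carry the lower marker sums of libraries labelled mutant, and no test was made on them.

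By likeness over the 15 libraries, with the cohort mean removed, Irf1 had Ifi47 and Tap1 among its closest, each with a Pearson r of 0.99 among 14564 genes. Socs1 was closest to Irgm1 (0.96), Cxcl10 (0.95) and Zc3h12a (0.94), and Cd274 to Gbp8 (0.95), Mxd3 (0.94) and Gbp2 (0.94). Cxcl10 was closest to Gbp2, Tmem50b and Iigp1 (0.97 each), Cxcl9 to Eif1a and Iigp1 (0.96 each) and Cxcl10 (0.95), and Ido1 to Upp1 (0.97), Ly75 (0.96) and Psme1 (0.95). Ifng was closest to Rab10, Txndc9 and Irgm1 (0.90 each). Ifngr1 had other neighbours, Lamb3 (0.87), Aldh1a1 (0.84) and Pigh (0.84). Genotype groups differ within each cohort, so these values carry the group difference and no p is given.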

How the data were processed

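The deposited values were raw read counts per Ensembl gene, made by the authors, in 1 table for each cohort. The submitters' processing notes name bcl2fastq 2.17.1.14, Bowtie 1.0.0, Bowtie2 2.1.0, TopHat2 2.0.10, HTSeq 0.6.1 and the mouse build mm9; the annotation release and strand setting are not given in the sources used here. Total RNA was depleted of ribosomal RNA before library preparation, and RNA was extracted by either of 2 methods, per the labels' protocols, which do not say which library had which. The molecule label reads polyA RNA instead, and this conflict was not resolved. All 15 columns were matched to samples by title.

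Symbols came from GENCODE M21 (GRCm38), another build than that of the counts, and were paired with 32897 of 37620 identifiers; those without carried 0.675% of counts. This annotation was used for names, exon length and exon overlap only. Groups follow the genotype and time labels. Within each group any pair of libraries differed beyond sampling noise (chi-square over its degrees of freedom at least 11.3).

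Each cohort was fitted alone over all genes with edgeR 4.0.16 (R 4.3.3; quasi-likelihood F test, legacy fit, two-sided, filterByExpr with its minimum count of 10, TMM scaling), and the difference between times as an interaction over 4 group means. Called means a Benjamini-Hochberg adjusted p under 0.05. Means carry SD and fold changes SE. Tested on simulated counts with 200 genes changed by a log2 value of 2, the fits recovered 91.5% at 8 days (17493 genes), 95.5% at 3 months (17085) and 84.5% for the difference (17959). Unchanged genes made up 3.68%, 5.45% and 3.98% of the calls. Smaller changes, such as those of the members at 8 days, were not simulated, so recovery is not known for them. Alternatives were DESeq2 1.42.0, limma-voom (limma 3.58.1), RLE scaling, no filter, 10 counts in every library, robust empirical Bayes, a fit of both cohorts, Rfx6f/f controls alone, a log2 change of 1 or more in size, and omission of each library in turn. The newer quasi-likelihood fit, the comparison between cohorts, and the alternatives for marker calls and for pathway calls of the difference were added after seeing the data.

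The members and all gene lists were chosen with earlier results of these data known. Named genes were the members, their direct partners, up to 4 called genes with the smallest p per pathway list and time (where a list had none, the 2 largest changes with a mean of at least 1 CPM), and the 3 genes most correlated with each member on log2 CPM (prior count 2), leaving out predicted and receptor-segment genes. Other genes named were chosen after their values were seen. A gene that met the rule is not reported here. Figures were drawn with matplotlib 3.10.9.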

Additional observations from a re-analysis of the deposited data

Results flagged for a closer look

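In library 2 labelled mutant at 3 months, 3 members stood far from the other 3 libraries of the group: Socs1 at 4.35 CPM, with the others at 2.40 to 2.62, Cxcl9 at 10.3 CPM, with the others at 3.27 to 4.44, and Cxcl10 at 2.56 CPM, with the others at 1.16 to 1.32. Of 39 gene and group combinations checked, 3 were found, where 1 in 20, or 1.95, would be expected by chance. That library also had the highest T cell marker sum of its group, 83.8 CPM.

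The change between genotypes differed between the times for Socs1, by -2.47, and for Cd274, by -1.65, on the log2 scale (edgeR interaction test over all 15 libraries, adjusted p = 0.0104 and 0.00530). In the 8-day cohort their log2 fold changes were 0.25 and -0.09, and in the 3-month cohort -2.20 and -1.72.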

How the results depend on the processing

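No paired analysis was possible because the labels give no replicate numbers shared by the groups. Members called at 8 days were 1 with DESeq2 (Ido1) and pathway genes 1 with DESeq2 (Haao) and 0 to 4 with each library left out, 4 without library 1 labelled mutant. Members called at 3 months were 1 with Rfx6f/f controls only and 5 to 7 with each library left out. Pathway genes called at 3 months were 54 with DESeq2, 1 with Rfx6f/f controls only, 19 when a log2 change of 1 or more was required and 11 to 46 with each library left out. Members called for the difference between the times were 4 with DESeq2 (Socs1, Cd274, Irf1 and Cxcl10), 0 with Rfx6f/f controls only and 1 to 4 with each library left out. Of the alternatives in which they were tested, Ifng, Irf1, Socs1 and Cxcl10 lost their 3-month call only with Rfx6f/f controls (adjusted p = 0.154, 0.136, 0.0511 and 0.119), a fit with 2 controls fewer in which their log2 fold changes were -2.89, -0.98, -1.96 and -1.79, and Ifng was not tested with a filter of 10 counts in every library; Cxcl9 and Ido1 lost theirs there and with robust empirical Bayes as well. With each library left out, values near 0 turned sign: at 8 days Irf1 ran from -0.17 to 0.070 (above 0 without control 2 or library 2 or 3 labelled mutant) and Cd274 from -0.28 to 0.021 (above 0 without control 2). At 3 months Ifngr1 ran from -0.059 to 0.054 (below 0 without control 2 or library 1 labelled mutant), and its difference between the times from -0.029 to 0.11 (below 0 without that library). DESeq2 called 178 genes at 8 days where edgeR called 16, and 2989 at 3 months where edgeR called 1586. For the difference between the times it called 1013 where edgeR called 141. The cause was not tested. At 3 months, 400, 412 and 391 genes were called without control 1, 2 or 3. Depth limits Ifng, which had 0 to 14 counts in every library other than the 3-month controls.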
